A study of Mus musculus with 27 samples.

Results

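The 32 genes described here fall into 2 lists. The 20 called glycolysis genes encode enzymes, transporters and regulators of glycolysis, pyruvate use and lactate export. The 12 called hypoxia genes encode a part of the response to low oxygen. They were taken by symbol from 3 gene tables of 55291 rows each, and a gene counted as measured where its mean over a table's libraries was at least 10 normalized counts. By that limit all 32 were measured in the endothelial table of chylomicron and control libraries (of 15595 genes past the limit) and in the endothelial knockdown table (of 14217), and 31 were measured in the macrophage table (of 13630). Slc2a3 was the gene outside the limit, with a mean of 8.15 in the macrophage table. The lowest means inside it were 16.8 and 41.8 for Slc2a3 in the endothelial knockdown table and the other endothelial table, and 51.9 for Ndrg1 in the macrophage table.

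The study sequenced messenger RNA from mouse endothelial cells (EC) and mouse peritoneal macrophages (PMAC), and its title concerns vesicles that endothelial cells release after exposure to chylomicrons, the triglyceride-rich lipoproteins made by the gut. The groups were EC chylomicron, EC SRBI knockdown, EC control, PMAC chylomicron, PMAC SRBI knockdown and PMAC control, with 3 libraries each. SRBI is the lipoprotein receptor encoded by Scarb1. A dose, an exposure time, a strain, an age and the means of knockdown are not given in the sources used here, nor is it stated which cells carried the knockdown for the macrophage libraries, whether any knockdown library also received chylomicrons, or whether macrophages met chylomicrons or material from treated endothelial cells. The labels' extraction protocol speaks of murine cell lines called PL and PLA, which no label explains, and whether the EC knockdown libraries came from the same cells as the other EC libraries is not given in the sources used here. Nothing states that the 3 libraries of a group came from separate cultures or animals, so p-values measure the spread between these libraries, which may be technical.

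Glycolysis splits glucose into pyruvate in the cytosol and yields ATP without oxygen. Most of the pyruvate that mitochondria do not take up is reduced to lactate and exported. When oxygen is scarce, the prolyl hydroxylases that mark the transcription factor subunit HIF-1alpha for destruction slow down, and the stabilised factor raises transcription of glycolytic genes and of genes for vessel growth, mitochondrial turnover and lipid storage. Inflammatory signals can raise HIF-1alpha in macrophages at normal oxygen, and endothelial cells are known for drawing much of their ATP from glycolysis.

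HIF binds DNA at the core letters ACGTG or GCGTG. Promoter windows from 250 bases before to 50 bases after a start were available in RefSeq (GRCm38.p6) for 30 of the 32 genes and not for Ndrg1 and Slc2a3. Searched on both strands, ACGTG stood in 16 of the 30 windows (53.3%), against 19.6% of the windows of 27025 genes. GCGTG stood in 16 of 30 (53.3%), against 32.5% of all windows, and at least one of the motifs in 23 of 30 (76.7%), against 43.8%. The 27025 genes were not limited to those measured here. The 32 genes were listed for glycolysis and the response to low oxygen, so these shares are not an independent finding about them. A match describes letters in this window and is not a binding site. The 5 windows below belong to the genes on which the results turn: Slc16a3 and Egln3, which rose furthest in endothelial cells, and Adm, Hilpda and Mxi1, which rose furthest of the calls without overlap in PMAC chylomicron against PMAC control. Each is printed 5′ to 3′ on the gene's strand, with ACGTG and GCGTG, or their reverse complements CACGT and CACGC, in capitals. They lie at chr11:120948817-120949116 (plus strand, Slc16a3), chr12:54203825-54204124 (minus strand, Egln3), chr7:110627407-110627706 (plus, Adm), chr6:29272238-29272537 (plus, Hilpda) and chr19:53310256-53310555 (plus, Mxi1, the most upstream of the 3 starts available). The annotated genes of Mxi1 (from 53310128) and Slc16a3 (from 120948484) begin upstream of these windows, so the windows do not cover their 5′ ends.
Slc16a3: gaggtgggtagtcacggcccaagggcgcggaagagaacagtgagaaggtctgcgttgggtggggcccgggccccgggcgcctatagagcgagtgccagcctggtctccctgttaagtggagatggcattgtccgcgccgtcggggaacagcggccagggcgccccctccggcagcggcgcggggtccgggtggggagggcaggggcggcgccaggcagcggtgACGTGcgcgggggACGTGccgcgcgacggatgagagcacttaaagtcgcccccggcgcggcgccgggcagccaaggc
Egln3: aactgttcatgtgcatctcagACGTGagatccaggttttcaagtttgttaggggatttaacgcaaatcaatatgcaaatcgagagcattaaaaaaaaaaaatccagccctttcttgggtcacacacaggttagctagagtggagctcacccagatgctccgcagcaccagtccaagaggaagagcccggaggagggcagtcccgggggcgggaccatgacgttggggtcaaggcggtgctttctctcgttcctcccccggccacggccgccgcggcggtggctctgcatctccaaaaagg
Adm: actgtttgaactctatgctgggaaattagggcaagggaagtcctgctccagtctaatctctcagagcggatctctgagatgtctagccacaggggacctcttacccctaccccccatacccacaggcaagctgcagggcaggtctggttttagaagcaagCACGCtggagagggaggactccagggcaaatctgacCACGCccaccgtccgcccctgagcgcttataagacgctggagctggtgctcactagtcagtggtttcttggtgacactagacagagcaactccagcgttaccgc
Hilpda: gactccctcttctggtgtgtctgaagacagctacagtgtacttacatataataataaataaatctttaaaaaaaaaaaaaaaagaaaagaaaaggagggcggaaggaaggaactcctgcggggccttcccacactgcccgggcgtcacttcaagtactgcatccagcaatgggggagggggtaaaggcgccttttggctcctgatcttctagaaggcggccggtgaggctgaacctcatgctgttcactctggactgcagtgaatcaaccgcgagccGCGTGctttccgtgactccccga
Mxi1: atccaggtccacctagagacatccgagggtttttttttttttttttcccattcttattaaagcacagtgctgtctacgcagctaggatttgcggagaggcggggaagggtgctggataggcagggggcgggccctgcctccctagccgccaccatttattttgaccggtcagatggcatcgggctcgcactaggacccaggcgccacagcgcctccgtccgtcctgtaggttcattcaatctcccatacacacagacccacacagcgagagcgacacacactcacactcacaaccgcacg
The Slc16a3 window held ACGTG 2 times and the Egln3 window once. The Adm window held GCGTG 2 times, both read on the opposite strand, and the Hilpda window once, close after the start. The Mxi1 window held neither motif.

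Library depth, recovered as whole reads from the normalized values, was 40046820 to 46700757 reads in EC chylomicron and control libraries, 30547284 to 55874954 in PMAC libraries and 16758727 to 20715157 in EC knockdown libraries. Scarb1 had 8905, 11725 and 9335 normalized counts in EC chylomicron libraries, against 11107, 12469 and 12857 in EC control libraries. In PMAC libraries it had 1571, 1832 and 1737 with chylomicrons and 1875, 1770 and 2149 in those labelled SRBI knockdown, against 2281, 2287 and 2355 in controls, so that the knockdown libraries lay below the controls and overlapped the chylomicron libraries. In reads per 1000000 library reads (RPM), which sets libraries of separate tables side by side, it had 114, 118 and 120 in EC knockdown libraries, against 251, 290 and 302 in EC control libraries. EC libraries held the endothelial genes Pecam1 and Cdh5, at 156, 199 and 150 RPM of Pecam1 with chylomicrons, 74.8, 74.5 and 72.3 RPM with knockdown and 162, 179 and 184 RPM in controls. Cdh5 was at 279, 374 and 258 RPM with chylomicrons, 49.8, 43.8 and 45.0 RPM with knockdown and 323, 389 and 376 RPM in controls. EC libraries also held fibroblast and mural marker RNA, a summed 3192 to 3320 RPM over 10 genes with chylomicrons, 4241 to 4641 RPM with knockdown and 2776 to 3280 RPM in controls. The macrophage gene Adgre1 was at 0 in every EC chylomicron and EC knockdown library. Other macrophage marker RNA was present in them. The 12 macrophage markers summed to 197 to 224 RPM with chylomicrons, 172 to 178 RPM with knockdown and 225 to 239 RPM in controls. In each EC group 4 of the 12 reached a mean of 1 RPM. Among EC libraries, control replicate 1 had 8.35% mitochondrial reads (1.16% to 3.54% in the other 5 of its table), and chylomicron replicate 2 had reads on 19069 genes (21108 to 22929 in the other 5). PMAC chylomicron replicates 1 and 2 had reads on 16235 and 16384 genes, against 18028 to 20149 in the other PMAC libraries. In bulk RNA, fewer cells of a type and less RNA per cell cannot be told apart.

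In endothelial cells, 8 genes of the glycolysis list and the HIF regulators Hif1a and Egln3 rose with chylomicrons, and the hypoxia response gene Adm fell. The 8 were Hk2, Pfkl, Tpi1, Pgk1, Pgam1, Eno1, the lactate exporter gene Slc16a3 and Pdk1, which regulates pyruvate use and is not a glycolytic enzyme. Of the 32 genes, 10 rose and 1 fell (limma on log2(normalized count + 1), Benjamini-Hochberg adjusted p under 0.05, the threshold throughout), where 5.16% of the 15595 genes tested rose and 3.28% fell. The rises were 8 of the 20 glycolysis genes and 2 of the 12 hypoxia genes. The median log2 change over the 32 was 0.22, against -0.02 over all genes. The changes were modest, between 1.23-fold and 1.83-fold for the genes that rose.

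**Figure D1:**
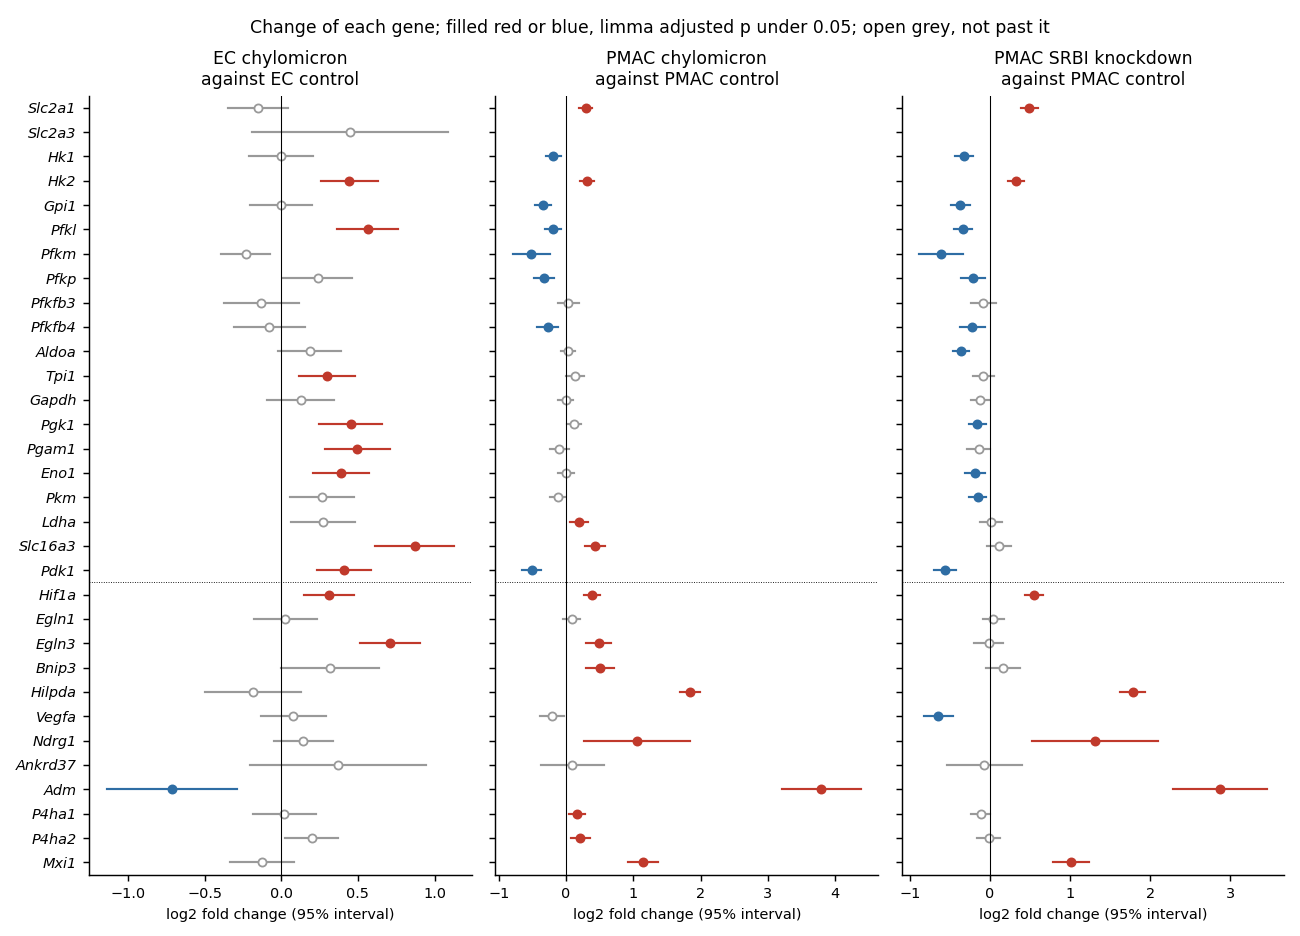
Log2 fold change (x axis, log2 of normalized count + 1) of each gene (y axis, grouped by role) in EC chylomicron against EC control, PMAC chylomicron against PMAC control and PMAC SRBI knockdown against PMAC control, with 95% confidence intervals from limma, filled where the adjusted p is under 0.05, each panel on its own scale. Adm lies at -0.71 in EC and at 3.79 and 2.87 in PMAC, and Hilpda lies at -0.19 in EC and at 1.84 and 1.78 in PMAC.

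Glucose entry and the first steps showed the liver form of phosphofructokinase and the inducible hexokinase. Pfkl, the liver-type subunit of the enzyme that commits sugar to glycolysis, had 5944, 6728 and 5399 normalized counts in EC chylomicron libraries, against 3986, 3888 and 4324 in EC control libraries. The 3 treated libraries lay above the 3 controls, and the log2 change was 0.56 ± 0.09 (SE, adjusted p = 0.00173 in limma). Hk2, the hexokinase form that many stimuli induce, had 1408, 1326 and 1237 with chylomicrons, against 982, 980 and 953 in controls, a log2 change of 0.44 ± 0.09 (adjusted p = 0.00568). The glucose transporters Slc2a1 (GLUT1; -0.15, adjusted p = 0.413) and Slc2a3 (GLUT3; 0.45, adjusted p = 0.471) did not pass, nor did the housekeeping hexokinase Hk1 (0.00) and the isomerase Gpi1 (0.00). Slc2a3 was low, at 55.5, 47.0 and 43.0 normalized counts with chylomicrons and 32.3, 35.9 and 37.1 in controls. The muscle-type subunit Pfkm had 4076, 4409 and 4067 with chylomicrons, against 4837, 4958 and 4936 in controls, without overlap (-0.23, adjusted p = 0.0820), and the platelet-type subunit Pfkp gave 0.24 (adjusted p = 0.229). Pfkfb3 and Pfkfb4, which set the level of the sugar bisphosphate that activates phosphofructokinase, gave -0.13 and -0.08.

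Of the 7 enzymes between aldolase and pyruvate kinase, 4 rose. Pgam1, phosphoglycerate mutase, had 1269, 1402 and 1346 normalized counts with chylomicrons, against 925, 867 and 1065 in controls (0.50 ± 0.10, adjusted p = 0.00597). Pgk1, which makes the first ATP of the pathway, had 2673, 3097 and 3388 with chylomicrons, against 2236, 2097 and 2332 in controls (0.45 ± 0.09, adjusted p = 0.00893). Eno1, enolase, averaged 12490 ± 745 with chylomicrons and 9530 ± 517 in controls (SD, n = 3 each; log2 change 0.39, adjusted p = 0.0113), and Tpi1, triose phosphate isomerase, averaged 11477 ± 221 with chylomicrons and 9341 ± 709 in controls (0.30, adjusted p = 0.0448). In each of these 4 genes no treated library overlapped a control library, and the same held for Aldoa and Pkm, which did not pass. Such separation was not counted over all genes in this comparison. Aldolase Aldoa (0.19, adjusted p = 0.320), Gapdh (0.13, adjusted p = 0.574) and pyruvate kinase Pkm (0.27, adjusted p = 0.131) lay on the same side of 0 without passing.

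The largest rise of the 32 stood at the exit from the pathway. Slc16a3, which encodes the lactate exporter MCT4, had 523, 577 and 551 normalized counts in EC chylomicron libraries, against 277, 340 and 288 in EC control libraries. The lowest treated library lay well above the highest control, at a 1.83-fold mean change (log2 0.87 ± 0.12, adjusted p = 0.000545). Pdk1, the kinase that keeps pyruvate out of the mitochondrial oxidation route, had 2850, 3151 and 2955 with chylomicrons, against 2394, 2137 and 2211 in controls (0.41 ± 0.08, adjusted p = 0.00609). Lactate dehydrogenase Ldha gave 0.27 (adjusted p = 0.117).

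**Figure D2:**
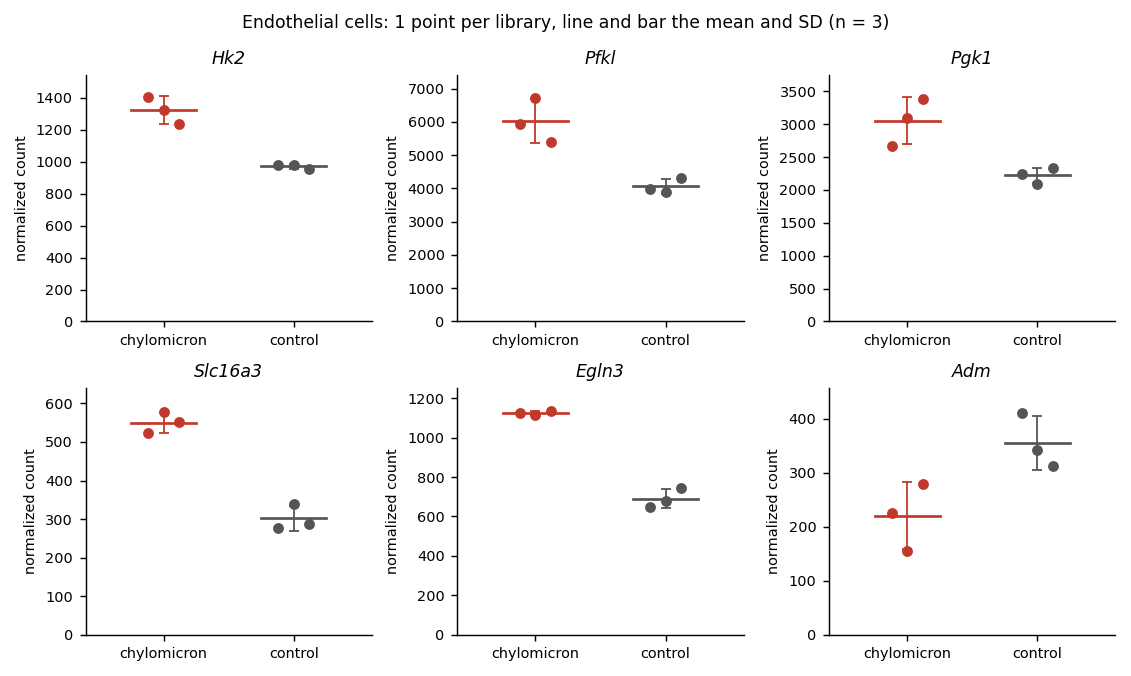
Normalized counts per library (points, y axis) with group means (line) and SD (bar) for 6 genes named in the endothelial comparison, EC chylomicron left and EC control right, 3 libraries each. Slc16a3 sits at 523 to 577 against 277 to 340, Egln3 at 1113 to 1134 against 649 to 743, and Adm at 156 to 280 against 312 to 411.

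Among the hypoxia genes, Egln3 encodes a HIF prolyl hydroxylase that is itself a HIF target. It had 1126, 1113 and 1134 normalized counts with chylomicrons, against 649, 678 and 743 in EC controls, a 1.63-fold rise (log2 0.71 ± 0.09, adjusted p = 0.00034). The treated libraries were nearly equal to one another and all above the controls. Hif1a, the oxygen-regulated HIF subunit, had 9478, 9964 and 9740 with chylomicrons, against 7731, 7938 and 7882 in controls (0.31 ± 0.08, adjusted p = 0.0216). Adm, which encodes the vasodilator peptide adrenomedullin, had 226, 156 and 280 with chylomicrons, against 411, 342 and 312 in controls (-0.71 ± 0.20, adjusted p = 0.0400). The other 9 hypoxia genes did not pass: Egln1, the main HIF prolyl hydroxylase (0.03), the mitophagy receptor Bnip3 (0.32), the lipase inhibitor Hilpda (-0.19), the vessel growth factor Vegfa (0.08), Ndrg1 (0.14), Ankrd37 (0.37), the collagen prolyl hydroxylase subunits P4ha1 (0.02) and P4ha2 (0.20), and Mxi1, a repressor that competes with Myc for its partner (-0.13).

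Some of these endothelial calls did not hold when 1 library was left out. Hk2, Pfkl, Pgam1, Slc16a3 and Egln3 kept their calls without each of the 6 libraries in turn. Without a moderation trend on mean expression, 3 of the 10 genes that rose still passed (Hk2, Slc16a3 and Egln3), while Pfkl (adjusted p = 0.0539), Pgam1 (0.0739), Pdk1, Pgk1, Eno1, Tpi1, Hif1a and Adm did not. The call on Tpi1 was lost without 5 of the 6 (highest adjusted p = 0.277), that on Adm without 5 of the 6 (0.206) and with edgeR on the recovered reads (0.0662), those on Pgk1 and Eno1 without control replicate 1 or 2 (0.0571 and 0.0853), that on Hif1a without any 1 of the controls (0.116) and that on Pdk1 without control replicate 2 (0.0503). Without chylomicron replicate 2, Pfkm (adjusted p = 0.0353, lower), Pfkp (0.0240, higher) and Bnip3 (0.0302, higher) passed. In DESeq2 on the recovered reads Pkm (adjusted p = 0.0016, higher), Ldha (0.00828, higher) and Pfkm (0.0300, lower) passed. Without chylomicron replicate 2 and control replicate 1 together, 5 of the 32 rose (Hk2, Pfkl, Slc16a3, Pdk1 and Egln3) and 0 fell in limma (3 lower at an unadjusted p under 0.05). Endothelial markers moved in the same comparison, with 5 of the 11 tested lower, 0 higher and a summed level of 692 to 887 RPM with chylomicrons against 901 to 981 RPM in controls. Their part in these values was not tested.

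Of 24 other glycolysis and pyruvate genes tested in endothelial cells, 1 rose and 0 fell in limma, edgeR and DESeq2 (limma, 2 lower at an unadjusted p under 0.05). Over all genes tested 5.16% rose and 3.28% fell, so 1 of 24 was near that share. The riser, Slc2a6, a glucose transporter of lysosomal membranes, was low, with 25.6 ± 4.79 normalized counts with chylomicrons and 2.95 ± 2.56 in controls (adjusted p = 0.0367). Of 11 other regulators of the HIF pathway 0 passed in limma and DESeq2 and 1 fell in edgeR (limma, 1 lower at an unadjusted p under 0.05). Of 39 other hypoxia response genes 5 rose and 2 fell. Pgf, a relative of Vegfa, averaged 205 ± 6.11 with chylomicrons and 94.3 ± 31.3 in controls (log2 change 1.17, adjusted p = 0.00577), and the cytokine Mif averaged 1235 ± 82.8 with chylomicrons and 862 ± 39.6 in controls (0.52, adjusted p = 0.00278). The oxidative protein-folding enzyme Ero1l (0.40) and the EGF receptor inhibitor Errfi1 (0.45) rose as well.

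In peritoneal macrophages the same treatment label went with a different pattern: hypoxia response genes rose, some many-fold, while genes of upper glycolysis fell. Of 31 genes, 13 rose and 7 fell in PMAC chylomicron against PMAC control, where 16.0% of the 13630 genes tested rose and 17.4% fell. Of the 12 hypoxia genes 9 rose and 0 fell in limma, edgeR and DESeq2 (limma, 1 lower at an unadjusted p under 0.05). Of the 19 glycolysis genes 4 rose and 7 fell. Of the 7 enzymes between aldolase and pyruvate kinase 0 passed in limma and edgeR, while DESeq2 called 1 higher and 1 lower (limma, 1 higher and 1 lower at an unadjusted p under 0.05). The median log2 change over the 31 was 0.09, against -0.01 over all genes.

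**Figure D3:**
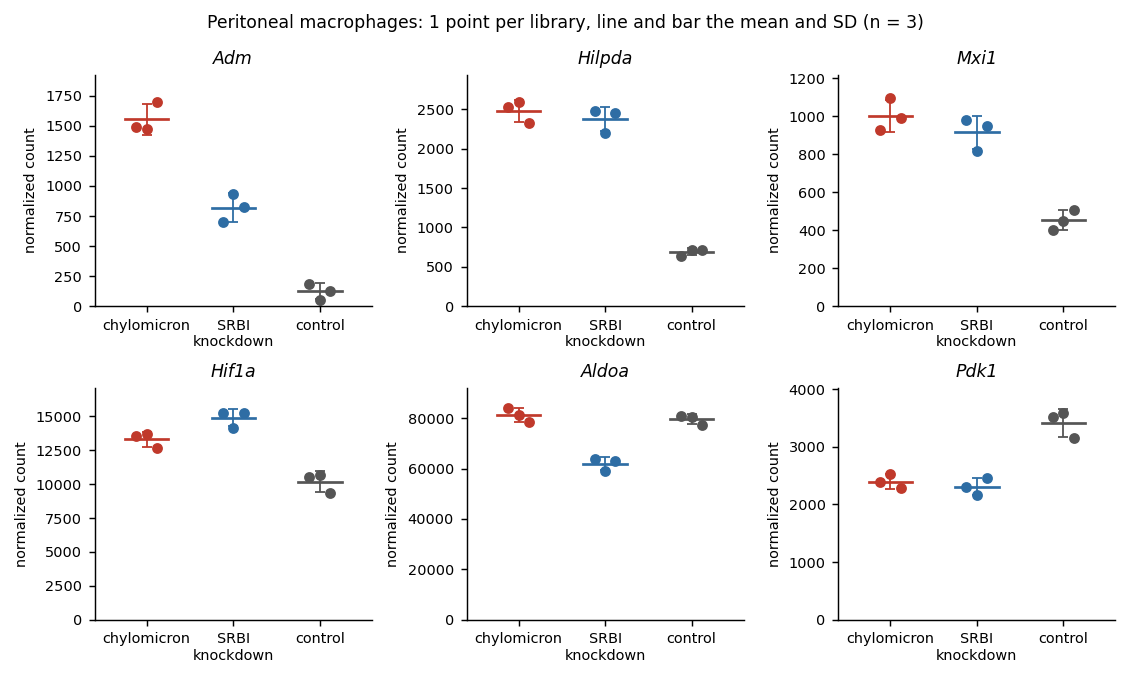
Normalized counts per library (points, y axis) with group means (line) and SD (bar) for 6 genes named in the macrophage comparisons, in the order PMAC chylomicron, PMAC SRBI knockdown and PMAC control, 3 libraries each. Adm, Hilpda and Mxi1 have every chylomicron and knockdown library above every control, and Pdk1 has them below.

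Adm had 1486, 1469 and 1700 normalized counts in PMAC chylomicron libraries, against 189, 55.1 and 130 in PMAC controls. Every treated library lay far above every control, and the fitted change was 13.9-fold (log2 3.79, 95% interval 3.21 to 4.38, adjusted p = 8.18e-09 in limma). Hilpda, which restrains the lipase that empties lipid droplets, had 2522, 2596 and 2322 with chylomicrons, against 642, 718 and 715 in controls (3.58-fold, adjusted p = 1.92e-12). Mxi1 had 928, 1096 and 989 with chylomicrons, against 405, 451 and 509 in controls (2.21-fold, adjusted p = 1.28e-07). In both genes the treated libraries stood clear of the controls. Ndrg1, a stress-induced gene, was low in macrophages and its groups overlapped, at 56.6, 39.6 and 80.4 with chylomicrons and 17.5, 25.3 and 43.1 in controls (log2 change 1.05, adjusted p = 0.0386).

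The remaining hypoxia genes had fitted changes below 1.5-fold. Egln3 had 1735, 1873 and 1613 with chylomicrons, against 1378, 1224 and 1130 in PMAC controls (log2 change 0.49 ± 0.09, adjusted p = 0.000288). Bnip3 averaged 1021 ± 116 with chylomicrons and 719 ± 59.3 in controls (0.50, adjusted p = 0.000722), and Hif1a averaged 13299 ± 526 with chylomicrons and 10197 ± 755 in controls (0.38, adjusted p = 2.90e-05). P4ha1 (0.17, adjusted p = 0.0302) and P4ha2 (0.21, adjusted p = 0.0206) rose slightly. Vegfa (-0.21, adjusted p = 0.0618), Egln1 (0.08) and Ankrd37 (0.09) did not pass.

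Upstream in glycolysis, Slc2a1 averaged 11040 ± 637 normalized counts with chylomicrons and 9031 ± 227 in PMAC controls (0.29, adjusted p = 0.000152). Hk2 had 4967, 4954 and 4759 with chylomicrons, against 3804, 4045 and 3997 in controls (0.31 ± 0.05, adjusted p = 7.31e-05). These 2 genes rose while the enzymes next to them fell: Hk1 (-0.19, adjusted p = 0.0117), Gpi1 (-0.34, adjusted p = 0.000138), Pfkl (-0.20, adjusted p = 0.00919), Pfkm (-0.52, adjusted p = 0.00534), Pfkp (-0.33, adjusted p = 0.00141) and Pfkfb4 (-0.27, adjusted p = 0.00788). Pfkfb3, the form that many immune stimuli induce, gave 0.03. Between aldolase and pyruvate kinase the changes ran between -0.13 (Pkm, adjusted p = 0.0677) and 0.13 (Tpi1). Aldoa averaged 81179 ± 2780 with chylomicrons and 79586 ± 1870 in controls, closer than the spread between libraries.

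At the pathway's exit, Slc16a3 had 6427, 7510 and 6366 with chylomicrons, against 5064, 5382 and 4636 in PMAC controls (0.43 ± 0.07, adjusted p = 0.000162). Ldha rose by less (0.19, adjusted p = 0.0335). Pdk1 fell, with 2382, 2529 and 2282 in chylomicron libraries and 3514, 3588 and 3147 in controls (-0.51 ± 0.07, adjusted p = 9.59e-06). Every treated Pdk1 value lay below every control, the opposite side to endothelial cells. Slc2a3, outside the measured genes here, was at 0, 8.49 and 7.61 with chylomicrons and 22.1, 9.94 and 11.0 in controls.

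Of the 20 macrophage calls, 14 held without each of the 6 libraries in turn. Hk1 and Pfkfb4 were lost without control replicate 1 (adjusted p = 0.0685 and 0.0572), Ldha without chylomicron replicate 2 or control replicate 3 (highest 0.195), and Ndrg1, P4ha1 and P4ha2 without several (highest 0.160, 0.164 and 0.0962). Without chylomicron replicate 2, Vegfa (adjusted p = 0.00478) and Pkm (0.0325) passed as lower. Pgk1 passed as higher without chylomicron replicate 1 (0.0453), and Tpi1 without chylomicron replicate 3 (0.0476). Scaling the libraries to equal totals shifted the median of all genes by -0.12 and split the calls into 1306 genes higher and 3766 lower, against 2178 and 2372 with the deposited scaling. With it 9 of the 31 rose and 11 fell, since Ldha, Ndrg1, P4ha1 and P4ha2 no longer passed and Gapdh, Pgam1, Pkm and Vegfa passed as lower. Macrophage markers moved as well, with 3 of 12 higher, 7 lower and a summed level of 35127 to 38231 RPM with chylomicrons against 60697 to 64783 RPM in controls. High genes weigh most in this sum, and Lyz2 alone took 3.98% to 4.20% of reads in controls. The macrophage gene Adgre1 averaged 136325 ± 8020 normalized counts with chylomicrons and 134136 ± 3395 in controls. Cd68 averaged 54014.5 ± 555 with chylomicrons and 48390 ± 447 in controls. The summed level of 10 erythroid and platelet markers was 4561 to 5195 RPM with chylomicrons against 1934 to 2097 RPM in controls. Only 2 of these 10 reached a mean of 1 RPM in either group. The part of both marker lists in these values was not tested.

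Of the other glycolysis and pyruvate genes, 25 were tested in macrophages, and 2 rose and 9 fell with chylomicrons, where 16.0% of all genes rose and 17.4% fell. Ldhb, the second lactate dehydrogenase, averaged 185 ± 34.4 with chylomicrons and 468 ± 69.9 in controls (log2 change -1.34). Aldoc, a further aldolase, averaged 132 ± 24 with chylomicrons and 318 ± 40.8 in controls (-1.27). The pyruvate and lactate transporter Slc16a7 (-0.60) and the urate and sugar transporter Slc2a9 (-0.64) also fell. Of 11 other HIF regulators 6 rose and 2 fell. The fallers were Epas1, which encodes the HIF-2alpha subunit (350 ± 26.2 with chylomicrons and 615 ± 39.4 in controls, -0.81), and Cited2, which competes with HIF for its coactivator (-0.57), and among those that rose were the elongin subunit Elob (0.35) and the HIF partner Arnt2 (0.86). Of 34 other hypoxia response genes 18 rose and 6 fell, the falls near the share over all genes. Among them were the urokinase receptor Plaur (27115 ± 1480 with chylomicrons and 16937 ± 472 in controls, 0.68), Errfi1 (1.07) and Ero1l (0.62), which rose, and the glycogen branching enzyme Gbe1 (-0.62), which fell.

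In macrophages labelled SRBI knockdown, Adm, Hilpda, Ndrg1 and Mxi1 stood above control and most of the glycolytic transcripts that passed were lower. The 2 comparisons with control share the same 3 control libraries, so their values are given side by side and not as independent evidence. In PMAC SRBI knockdown against PMAC control, 7 of the 31 genes rose and 12 fell, where 14.7% of all genes tested rose and 15.5% fell. The median log2 change was -0.08 over the 31 and 0.01 over all genes. Of the glycolysis genes 2 rose and 11 of 19 fell, and of the 12 hypoxia genes 5 rose and 1 fell.

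Adm had 698, 936 and 826 normalized counts in knockdown libraries, between the chylomicron libraries and the controls given above, and was 7.30-fold above control (log2 2.87, adjusted p = 3.27e-07). Hilpda had 2473, 2200 and 2457 (log2 change 1.78, adjusted p = 2.95e-12) and Mxi1 had 981, 816 and 951 (1.01, adjusted p = 6.85e-07), both within or close to the range of the chylomicron libraries. Ndrg1, at 77.6, 62.4 and 64.6, no longer overlapped the controls (1.31, adjusted p = 0.0124), and Hif1a averaged 14898 ± 635 in knockdown libraries and 10197 ± 755 in controls (0.55, adjusted p = 5.35e-07). Vegfa fell, with 860, 815 and 860 in knockdown libraries and 1393, 1263 and 1312 in controls (-0.65, adjusted p = 1.24e-05). Egln3 (-0.02), Bnip3 (0.16), P4ha1 (-0.11), P4ha2 (-0.02), Egln1 (0.04) and Ankrd37 (-0.07) did not pass.

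Of the glycolytic genes, Slc2a1 averaged 12699 ± 374 in knockdown libraries and 9031 ± 227 in controls (0.49, adjusted p = 4.02e-07) and Hk2 gave 0.32 (adjusted p = 5.55e-05). Hk1 (-0.32), Gpi1 (-0.37), Pfkl (-0.34), Pfkm (-0.61), Pfkp (-0.21), Pfkfb4 (-0.22) and Pdk1 (-0.57) fell. Between aldolase and pyruvate kinase 4 enzymes passed as lower: Aldoa, with 63622, 59042 and 63030 in knockdown libraries and 80896, 80419 and 77443 in controls (-0.36, adjusted p = 1.29e-05), Pgk1 (-0.16), Eno1 (-0.19) and Pkm (-0.15). Tpi1 (-0.08), Gapdh (-0.13), Pgam1 (-0.14), Pfkfb3 (-0.08), Ldha (0.01) and Slc16a3 (0.11) did not pass. Leaving out 1 library at a time ended the calls on Ndrg1 (highest adjusted p = 0.0652), Pfkp (0.131), Pfkfb4 (0.180), Pgk1 (0.111), Eno1 (0.124) and Pkm (0.117), and the other 13 held. Without a moderation trend 7 of the 31 rose and 7 fell. In the pathway lists outside the 31, 1 of 25 glycolysis and pyruvate genes rose and 8 fell (14.7% and 15.5% over all genes), among them Hk3, a hexokinase of myeloid cells (-0.46), Slc2a6 (-0.51), Ldhb (-1.41) and Slc2a9 (-0.75). Of 11 HIF regulators 3 rose and 2 fell (Arnt2 1.29 and the HIF hydroxylase gene Hif1an 0.19, Cited2 -0.88 and Epas1 -0.55), and of 34 hypoxia response genes 12 rose and 5 fell, among them Plaur (0.97), Errfi1 (1.10), the lysyl oxidase relative Loxl2 (1.62) and Gbe1 (-0.72). The macrophage markers summed to 38613 to 42946 RPM in knockdown libraries, against the control range given above. Of the 12 tested, 2 were higher and 8 lower. Adgre1 averaged 145417 ± 4482 normalized counts in knockdown libraries and 134136 ± 3395 in controls. Cd68 averaged 43196 ± 742 in knockdown libraries and 48390 ± 447 in controls. Of the erythroid and platelet markers tested 2 of 3 were higher, at a summed 4633 to 5141 RPM over all 10 in knockdown libraries, against 1934 to 2097 RPM in controls. Only 2 of these 10 reached a mean of 1 RPM in either group. The part of both marker lists in these values was not tested.

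Set directly against each other, knockdown and chylomicron macrophages differed in 11 of the 31 genes. In the knockdown libraries 1 was higher and 10 were lower, where 5.60% of all genes tested were higher and 5.59% lower. The one that was higher was Slc2a1 (log2 difference 0.20, adjusted p = 0.0116). Aldoa had 63622, 59042 and 63030 normalized counts in knockdown libraries, against 83930, 81238 and 78370 in chylomicron libraries (-0.39 ± 0.05, adjusted p = 4.09e-05), without overlap. Egln3 had 1354, 1129 and 1203 in knockdown libraries, against 1735, 1873 and 1613 with chylomicrons (-0.50 ± 0.09, adjusted p = 0.00102). Vegfa averaged 845 ± 26.2 in knockdown and 1144 ± 139 in chylomicron libraries (-0.43, adjusted p = 0.00296). Pgk1 (-0.28, adjusted p = 0.00117), P4ha1 (-0.28, adjusted p = 0.00338), Slc16a3 (-0.31, adjusted p = 0.00929), Tpi1 (-0.21, adjusted p = 0.0350), P4ha2 (-0.23, adjusted p = 0.0353), Bnip3 (-0.34, adjusted p = 0.0353) and Adm (-0.93, adjusted p = 0.0404) were lower too. Aldoa, Pgk1, Egln3, Vegfa and P4ha1 kept their calls without each library in turn. Adm lost its call without any 1 of the 6 libraries (adjusted p = 0.0560 to 0.168) and in DESeq2 on the recovered reads (0.103), Slc2a1 without knockdown replicate 1 (0.0706), Slc16a3 without knockdown replicate 2 (0.0545), and Tpi1, Bnip3 and P4ha2 without 4 or 5 of the 6 (highest 0.179, 0.163 and 0.138). Without a moderation trend 4 of the 31 were lower. For Hilpda the difference was -0.06 (95% interval -0.21 to 0.09), and for Mxi1 -0.13 (-0.35 to 0.09). Outside the 31 genes, 1 of 25 glycolysis and pyruvate genes was higher in knockdown and 3 lower (Pdk4 2.48, at low counts, Hk3 -0.30, Slc2a6 -0.24 and Pdk3 -0.35), 0 of 11 HIF regulators were higher in limma, edgeR and DESeq2 (1 at an unadjusted p under 0.05) and 3 lower (Elob -0.25, Rbx1 -0.23 and Cited2 -0.31), and 3 of 34 hypoxia response genes were higher and 4 lower, among them Mif (-0.43), Plaur (0.29) and Gys1 (-0.42).

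The chylomicron changes in endothelial cells and macrophages were compared by an interaction term, as the EC change minus the PMAC change, over the 12473 genes measured in both tables. It passed for 12 of the 31 genes: 8 were higher in EC and 4 lower, where 10.8% of all genes were higher and 7.01% lower. The 8 were glycolysis genes, and 3 of the 4 were hypoxia genes. Pdk1 differed by 0.92 ± 0.10 (adjusted p = 1.83e-05), having risen by 0.41 in EC and fallen by 0.51 in PMAC. Pfkl differed by 0.76 (adjusted p = 0.000195), with 0.56 in EC and -0.20 in PMAC. Pgam1 (0.60), Pfkp (0.57), Slc16a3 (0.44), Eno1 (0.40), Pkm (0.39) and Pgk1 (0.33) were higher in EC as well. On the other side Adm differed by -4.51 ± 0.47 (adjusted p = 1.18e-05), Hilpda by -2.03 (adjusted p = 9.29e-07), Mxi1 by -1.27 (adjusted p = 3.91e-05) and Slc2a1 by -0.44 (adjusted p = 0.00999). For Hif1a the difference was -0.08 (95% interval -0.26 to 0.11) and for Egln3 0.22 (-0.05 to 0.49), genes that rose in both cell types. Scaling libraries to equal totals shifted the median of all genes here by 0.14 and raised the genes higher in EC to 14 of 31, while 3 were lower, since Slc2a1 no longer passed (-0.30, adjusted p = 0.0665). The calls on Pgk1, Slc16a3 and Pkm were lost without 9, 7 and 6 of the 12 libraries (highest adjusted p = 0.117, 0.0937 and 0.0651).

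**Figure D4:**
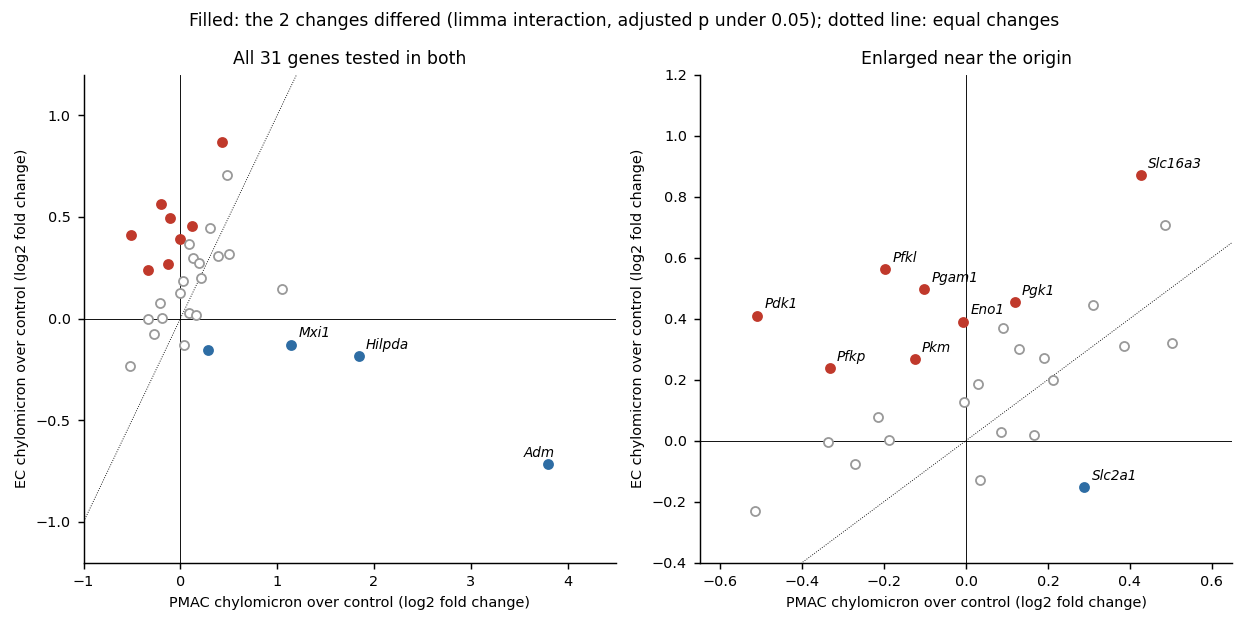
Log2 fold change with chylomicrons in EC (y axis) and in PMAC (x axis) for the 31 genes measured in both, each point 1 gene, filled where the 2 changes differed in the limma interaction (red higher in EC, blue lower), the dotted line marking equal changes and the right panel enlarging the crowded range. Adm, Hilpda and Mxi1 lie high on the PMAC axis and below 0 on the EC axis, and Pdk1 lies at 0.41 in EC and -0.51 in PMAC.

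Pairs of related genes gave a view that does not depend on library scaling, since both genes come from the same library. Hk2 reads per Hk1 read were 0.133, 0.110 and 0.128 in EC chylomicron libraries, against 0.0982, 0.0870 and 0.0874 in EC controls. In macrophages they were 1.13, 1.06 and 1.07 with chylomicrons and 1.30, 1.21 and 1.10 with knockdown, against 0.704, 0.815 and 0.791 in controls. The Hk2 to Hk1 ratio was thus higher in every chylomicron library than in any control of its cell type. The same held for the PMAC knockdown libraries. The Pfkl to Pfkm ratio was 1.46, 1.53 and 1.33 in EC chylomicron libraries, against 0.824, 0.784 and 0.876 in EC controls, and 38.0, 38.4 and 37.4 in PMAC chylomicron libraries, against 34.0, 28.6 and 28.9 in PMAC controls. The Egln3 to Egln1 ratio was 0.470, 0.386 and 0.496 with chylomicrons in EC, against 0.258, 0.287 and 0.295 in EC controls, and 0.829, 0.899 and 0.781 with chylomicrons in PMAC, against 0.706, 0.587 and 0.610 in PMAC controls. None of these comparisons overlapped. Each gave p = 0.1 in a two-sided exact permutation test, the smallest that 3 against 3 allows, and 0.193 after adjustment over the 29 ratios compared. With knockdown in macrophages the other two ratios overlapped the controls: Pfkl to Pfkm was 40.6, 31.4 and 39.0 in PMAC knockdown libraries (exact permutation p = 0.2, adjusted 0.29), and Egln3 to Egln1 was 0.670, 0.578 and 0.577 (exact permutation p = 0.5, adjusted 0.58). Separation was common among the ratios compared. In EC chylomicron against control each gave p = 0.1 in the exact permutation test, except Pfkfb3 to Pfkfb4 (0.7). Pfkp to Pfkl fell there (log2 difference -0.32). In PMAC chylomicron against control, Pfkp to Pfkl (0.3), Pfkp to Pfkm (0.2), Pfkfb3 to Pfkfb4 (0.2) and P4ha2 to P4ha1 (0.5) gave larger p in that test. Gene lengths cancel in these comparisons but not in the ratios themselves.

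EC SRBI knockdown libraries came in a table of their own, normalized separately, so they are set beside EC control in RPM with no test. The summed level of the 32 genes was 11465, 10560 and 11042 RPM in EC knockdown libraries, against 4314, 4502 and 4839 RPM in EC control libraries. Of the 32, 26 were higher in every knockdown library than in any control and 2 were lower, where 37.4% of 13826 genes were higher and 27.5% lower. The median log2 ratio was 1.39 over the 32 and 0.08 over all genes. Slc16a3 had 148, 120 and 122 RPM in knockdown libraries, against 6.28, 7.90 and 6.77 RPM in controls, and Egln3 had 193, 163 and 169 RPM in knockdown libraries, against 14.7, 15.8 and 17.5 RPM in controls. Slc16a3 thus stood 18.6-fold and Egln3 11.0-fold above control, the same 3 control libraries that the chylomicron comparison used. Ankrd37 (7.32-fold), Bnip3 (5.27-fold), Pfkp (4.54-fold), Hif1a (4.35-fold) and Ndrg1 (3.96-fold) followed, and the enzymes between aldolase and pyruvate kinase were 2.28-fold to 3.57-fold above. Pfkm (0.856-fold) and Pfkfb4 (0.854-fold) were lower. Slc2a1, Slc2a3, Adm and P4ha1 overlapped the controls. The knockdown libraries also differed in depth and in markers: endothelial markers summed to 144 to 153 RPM with 1 of 12 at 0, against 901 to 981 RPM in controls, and mesothelial markers to 571 to 604 RPM, against 39.8 to 43.9 RPM. Knockdown, table, depth and cell makeup cannot be told apart in these values.

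**Figure D5:**
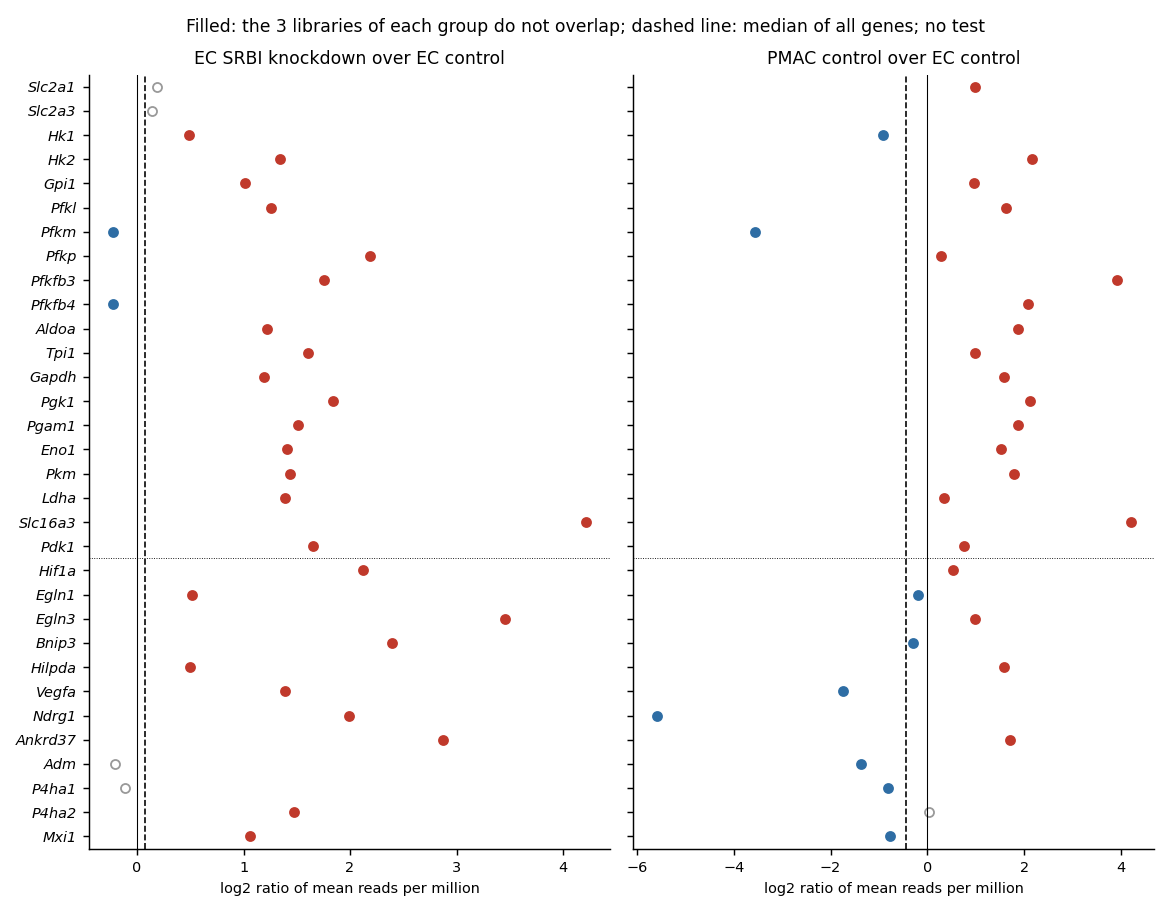
Log2 ratio of mean RPM (x axis) of each gene (y axis) for EC SRBI knockdown over EC control and for PMAC control over EC control, filled where the 3 libraries of each group do not overlap, the dashed line marking the median of all genes, with no test and each panel on its own scale. Slc16a3 lies at 4.22 and 4.20, and Pfkm at -0.22 and -3.57.

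The summed level of the 20 glycolysis genes was 9709, 9658 and 9269 RPM in PMAC control libraries, against 3508, 3666 and 3962 RPM in EC control libraries, while the 12 hypoxia genes summed to 679, 685 and 631 RPM in PMAC, against 806, 836 and 877 RPM in EC. Of 31 genes, 21 were higher in every PMAC control library than in any EC control library and 9 were lower, where 29.1% of 12461 genes were higher and 56.7% lower. The median log2 ratio was 0.98 over the 31 and -0.44 over all genes. Slc16a3 had 129, 137 and 119 RPM in PMAC controls, against 6.28, 7.90 and 6.77 RPM in EC controls, and Pfkfb3 had 136, 137 and 125 RPM in PMAC, against 8.05, 9.21 and 8.99 RPM in EC. On the other side stood Ndrg1, with 0.444, 0.643 and 1.11 RPM in PMAC and 32.6, 35.2 and 37.7 RPM in EC, Pfkm, with 8.63, 10.3 and 9.70 RPM in PMAC and 109, 115 and 116 RPM in EC, and Vegfa, with 35.4, 32.1 and 33.8 RPM in PMAC and 125, 113 and 101 RPM in EC. Adm was also lower in PMAC controls, at 4.79, 1.40 and 3.35 RPM, against 9.30, 7.97 and 7.34 RPM in EC controls. The tables were normalized separately and the samples' handling is not given, so cell type and table cannot be told apart here.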

How the data were processed

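Messenger RNA libraries of mouse endothelial cells and peritoneal macrophages were analysed, 3 per group, from gene tables the authors deposited. The values are a normalized signal, gene counts divided by a size factor within each table, as found from the values. Reads were made with bcl2fastq, aligned with STAR 2.7.3a and counted with featureCounts of Subread 1.6.3 on mm10 (GRCm38), per the submitters' processing notes, from a strand-marking mRNA kit, per the labels' protocols. How reads shared with near-identical copies were counted is not given in the sources used here. Of 21 rows for copies of these genes per table, the highest was Eno1b (means of 13.2, 56.4 and 25.1 normalized counts in the endothelial, macrophage and endothelial knockdown tables).

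The deposited signal was tested as log2(normalized count + 1) with limma 3.58.1 (R 4.3.3), moderated with a trend on mean expression, on genes with a mean of at least 10, with Benjamini-Hochberg adjustment over all genes tested and a threshold of 0.05. Fold changes on this scale understate those of low genes. EC chylomicron and control libraries formed 1 fit, the 3 PMAC groups another, and the difference between cell types a fit of 12 libraries. All low values were whole reads after division by 1 step per library (within 0.1 read), so edgeR 4.0.16 and DESeq2 1.42.0 were run on the recovered reads as alternatives. The others were a pseudocount of 5, no filter on low values, no moderation trend, equal library totals, a replicate block, the compared groups alone and leaving out each library. The limma fit was also run on simulated data. Most calls on the listed genes were smaller than the changes planted there, so that run does not check them. EC SRBI knockdown values were compared in reads per 1000000 library reads (RPM) with no test. Media small RNA libraries were not used here. Counting error limits only the genes of low counts at these depths.

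The named genes were all 32, Scarb1, and up to 4 genes by smallest p from each list of related genes in each comparison, of which 2 are not reported here. The members and lists were chosen with earlier results of these data known. No sample of another series was in the columns used.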

Additional observations from a re-analysis of the deposited data

Results flagged for a closer look

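For 12 genes the change with chylomicrons in endothelial cells differed from that in macrophages by the test of the difference itself (limma interaction over 12 libraries, adjusted p under 0.05). The log2 change in EC minus that in PMAC was 0.92 for Pdk1, 0.76 for Pfkl, 0.60 for Pgam1, 0.57 for Pfkp, 0.44 for Slc16a3, 0.40 for Eno1, 0.39 for Pkm and 0.33 for Pgk1. It was -4.51 for Adm, -2.03 for Hilpda, -1.27 for Mxi1 and -0.44 for Slc2a1. For Pdk1 and Pfkl the change passed in both cell types with opposite signs (0.41 in EC and -0.51 in PMAC for Pdk1, 0.56 in EC and -0.20 in PMAC for Pfkl), and for Adm as well (-0.71 in EC and 3.79 in PMAC), although the EC call on Adm did not hold without 5 of the 6 libraries. Slc16a3 rose in both, by 0.87 in EC and 0.43 in PMAC. Groups of 3 libraries are too small for a test of single outlying libraries.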

How the results depend on the processing

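No result reversed its direction past the threshold under the alternatives tried. Without a moderation trend, endothelial calls fell to 587 genes (378 higher, 209 lower) and 3 of the 32 higher and 0 lower (Hk2, Slc16a3 and Egln3 remained), knockdown against chylomicron macrophages to 602 genes (284 higher, 318 lower) with 0 and 4 of the 31, and knockdown against control to 7 lower. In EC, edgeR called 0 of the 32 lower and DESeq2 2, and leaving out chylomicron replicate 2 and control replicate 1 together, chosen after seeing the data, left 507 genes higher and 5 and 0 of the 32. Equal library totals gave 1306 genes higher, 3766 lower and 11 of the 31 lower in PMAC chylomicron, 2297 higher and 537 lower with 14 of the 31 higher in the difference between cell types, and 2 of the 31 higher in knockdown against chylomicron macrophages, where DESeq2 also called 2 higher and the fit without a filter 6 lower. The cause was not tested.

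The log2 ratio of summed levels was -0.10 in RPM for PMAC chylomicron over control, -0.049 with TMM and 0.014 as deposited. It was -0.22 for PMAC knockdown over control and -0.14 as deposited, 1.28 for EC knockdown over EC control and 0.077 as deposited, and 1.17 for PMAC control over EC control, 1.68 with TMM and 1.03 as deposited. Deposited values of separate tables have separate scales.

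Leaving out 1 library at a time gave 736 to 1557 genes in EC (470 to 823 higher, 261 to 734 lower, members 5 to 11 and 0 to 1), 3660 to 4435 in PMAC chylomicron (1791 to 2096, 1869 to 2372, members 10 to 13 and 5 to 9), 3263 to 3618 in PMAC knockdown (1567 to 1738, 1696 to 1882, members 6 to 7 and 8 to 13), 819 to 1807 in knockdown against chylomicron (400 to 940, 419 to 867, members 0 to 1 and 5 to 11) and 1740 to 2437 in the difference (1042 to 1432, 696 to 1005, members 5 to 8 and 4 to 5).

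Replicate numbers gave no sign of a pairing: same-numbered libraries correlated at 0.17, -0.16 and 0.06 in EC and between -0.10 and 0.07 in PMAC. Different-numbered EC libraries ran between -0.40 and 0.32. With 3 libraries a group these correlations cannot exclude a pairing. With the replicate block the calls were 1581, 4270, 3844, 1251 and 2351 genes in the comparisons as just listed, with 10, 11, 7, 1 and 9 members higher and 1, 7, 11, 7 and 4 lower. At 3 libraries a group, differences near the spread of the libraries may pass or miss by 1 library.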

Other observations

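The pentose phosphate pathway, which branches from glycolysis to make NADPH and ribose, was counted as a list of 8 genes. In PMAC chylomicron against control 6 of the 8 fell, where 17.4% of all genes tested fell, and 0 rose in limma and edgeR, with 0 risers at an unadjusted p under 0.05 and 0 in DESeq2. G6pdx, which encodes the entry enzyme, averaged 16946 ± 959 normalized counts with chylomicrons and 23334 ± 775 in controls (SD, n = 3 each, log2 change -0.46). Tkt (-0.35), Taldo1 (-0.33) and Pgls (-0.44) fell too. In PMAC SRBI knockdown against the same controls 5 of 8 fell (15.5% over all genes) and 0 rose with the same tools, with Taldo1 at 23909 ± 702 in knockdown and 36742 ± 669 in controls (-0.62), G6pdx at -0.45, Tkt at -0.38 and Pgls at -0.48. Between knockdown and chylomicron libraries Taldo1 was lower (-0.29), and Rpe (0.25) and H6pd (0.16), which encode an epimerase and an endoplasmic reticulum dehydrogenase, were higher. In endothelial cells Rpia, ribose phosphate isomerase, rose (630 ± 52.0 with chylomicrons and 478 ± 49.8 in controls, 0.40, adjusted p = 0.0492), and 0 of 8 fell in limma, edgeR and DESeq2, with 0 at an unadjusted p under 0.05. The difference between cell types passed for 7 of the 8, all higher in EC, where 10.8% of all genes were.

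Glycogen genes were counted as well. In PMAC chylomicron against control 8 of 11 fell and 1 rose, where 17.4% of all genes fell and 16.0% rose: Gbe1, the branching enzyme, averaged 13088 ± 299 with chylomicrons and 20129 ± 560 in controls (-0.62), the phosphorylase Pygb gave -0.41 and the phosphoglucomutase Pgm2 -0.44. In knockdown against control 8 of 11 fell (15.5% over all genes) and 0 rose in limma, edgeR and DESeq2, with 0 risers at an unadjusted p under 0.05 (Gbe1 -0.72, Gyg -0.42 and Pygb -0.54). Knockdown against chylomicron libraries gave 3 lower (5.59% over all genes), Gys1 (-0.42), Pgm1 (-0.27) and Gyg (-0.21). In endothelial cells 0 of 12 passed in limma, edgeR and DESeq2 (1 higher and 1 lower at an unadjusted p under 0.05). Gbe1 and Gys1 also stand in the list of other hypoxia response genes. Macrophage marker levels moved in the same libraries, and their part was not tested.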
